A study of Homo sapiens with 6 samples.

Results

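The stretch described here runs from 25 to 50 kb downstream of position 0 of a profile averaged over genes. Its limits are distances only, and were set with earlier results of these data known. It holds 25000 of the 122001 positions of each profile, which spans -2 to 120 kb, and each position is 1 base averaged over genes. Position 0 is taken as the start of genes, which the file headers do not state. All 6 libraries came from MRC5VA, an established line of human lung fibroblasts transformed with SV40. All cells, controls included, were held in 100 μM DRB for 3.5 h. In 3 libraries the cells then received UVC at 15 J/m2, in the other 3 none. After DRB was washed away, nuclei were taken at 10, 25 or 40 min for GRO-seq, with a run-on of 5 min in BrUTP. There was 1 library for each treatment and time, so no value below has a spread between cultures, and none was tested. In bulk nuclei, fewer transcribing cells and less transcription per cell cannot be told apart. The files hold no value per gene, so the cell line could not be set against marker genes and no gene is named.

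DRB inhibits CDK9, the kinase of P-TEFb, which phosphorylates RNA polymerase II and its pausing factors and so lets paused polymerases enter the gene. Polymerases held near the start in DRB leave together when it is removed, and appear in run-on data as a wave that moves into genes. UVC makes cyclobutane pyrimidine dimers and 6-4 photoproducts. A dimer in the template strand blocks elongating RNA polymerase II, and such stalled polymerases call in transcription-coupled repair. A polymerase must pass all of the template before it to reach a distal part of a gene body.

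Signal is given in the deposited units, whose scale is not stated, as means over bases. Within each library every value was a whole multiple of 1 smallest step, within 0.01 of a step, and the mean position of the stretch held 16768 steps in the untreated 10 min library, the fewest, and 77847 in the untreated 40 min library, the most. What a step counts is not stated, so no counting interval was computed. The stretch carried 15.0% to 27.8% of all signal from position 0 to 120 kb. In the GENCODE 44 annotation on GRCh37, 52.2% of 20162 protein-coding genes were at least 25 kb long and 33.7% at least 50 kb. Over all these genes, 38.1% of bases 25 to 50 kb past the start lay in introns of the gene, 3.81% in its exons and 58.1% beyond its end. Among the 2967 genes of at least 120 kb, 98.2% of those bases were intronic and 1.81% exonic. The genes averaged by the authors are not given in the sources used here, so it is not known which of these compositions applies.

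In untreated cells the stretch filled over time, whereas with irradiation its mean level stayed near its 10 min value. The untreated mean signal was 1.01 at 10 min, 1.70 after 25 min and 2.91 after 40 min. The irradiated mean signal was 1.04, 1.06 and 1.08 at these times. The untreated level was thus 1.67-fold its own 10 min level at 25 min and 2.87-fold at 40 min. With each profile divided by its own mean or by its distal mean (that of the last 12 kb), the untreated log2 change at 25 min was 0.41 or 0.54, short of 1.5-fold, against 0.74 as deposited. The irradiated level was 1.02-fold and 1.04-fold its own, and 0.973-fold at 25 min after division by the distal mean. In signal units the net irradiated gain over 10 min was 3.02% of the untreated gain at 25 min and 1.92% at 40 min. At 40 min the irradiated level was 106% of the untreated level at 10 min and 63.5% of the untreated level at 25 min, which differ from it in time.

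**Figure D1:**
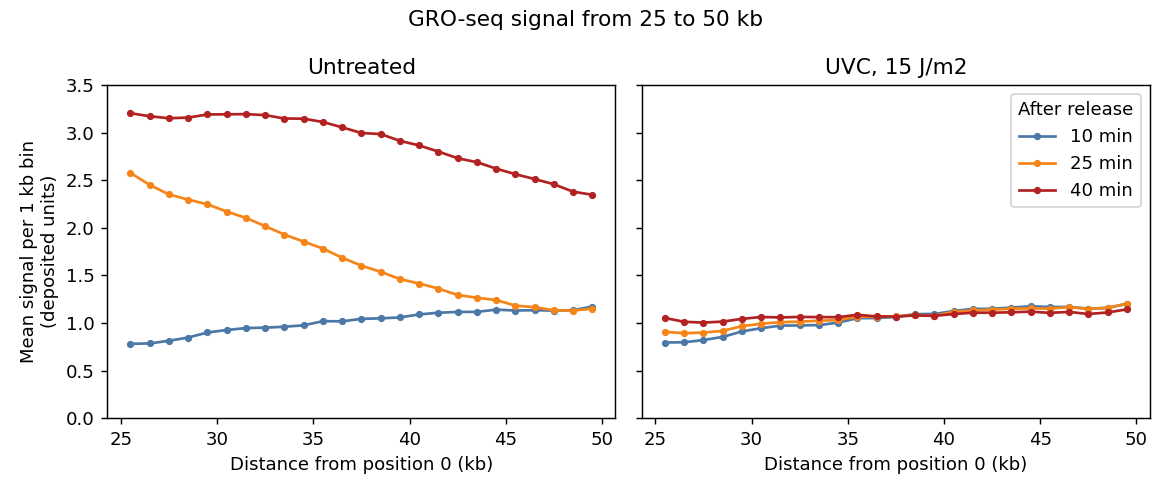
Mean signal (deposited units) in each of 25 bins of 1 kb against distance from position 0 (kb), untreated at left and irradiated at right, 1 line per library. The untreated 25 min line starts at 2.58 and ends at 1.15, next to the 10 min line, and the 3 irradiated lines lie between 0.795 and 1.203 throughout.

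At 10 min the profile sloped upward with distance in both treatments. In untreated cells the signal was 0.781 in the first bin (25 to 26 kb) and 1.17 in the last (49 to 50 kb), a ratio of 1.501. With irradiation these were 0.795 and 1.202, a ratio of 1.51. Both profiles were lowest in the first bin and highest in the last. Of 24 steps from one bin to the next, 21 were upward in untreated and 22 in irradiated cells. On the log2 scale the slope was 0.23 per 10 kb untreated and 0.24 irradiated. The last bin was close to the distal mean, which was 1.13 in both libraries. All later values are set against this sloping 10 min level, bin by bin.

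Arrival in untreated cells went from the near end to the far end. At 25 min the sub-window between 25 and 30 kb held a signal of 2.38, which was 2.89-fold its 10 min level. Between 30 and 35 kb the signal was 2.01, or 2.12-fold, and between 35 and 40 kb 1.61, or 1.56-fold. The sub-window between 40 and 45 kb held 1.32, or 1.18-fold. The farthest, between 45 and 50 kb, held 1.15, or 1.01-fold. The gain over 10 min was smaller in each bin than in the bin before it, for all 24 steps, from 1.79 in the first bin to -0.02 in the last. Of the 25 bins, 13 were at least 1.5-fold above their 10 min level, all from 25 to 38 kb, against 24.6% of all 122 bins of the profile. After division by the profile mean 10 bins passed that limit, and after division by the distal mean 11. The last 2 bins, from 48 to 50 kb, were the ones below their 10 min level. This split of 23 bins above and 2 below became 16 and 9 after division by the profile mean and 18 and 7 after division by the distal mean. By 25 min the near part of the stretch thus stood well above its 10 min level and the far end did not.

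By 40 min the whole stretch of untreated cells stood above its 10 min level. All 25 bins were at least 1.5-fold higher, against 42.6% of the 122 bins of the profile, and 21 of 25 were after division by the profile mean. The fold was 4.10 in the first bin and 2.0 in the last. The nearest 2 sub-windows both held 3.17, so the near part of the stretch had become flat. The signal was 3.01, 2.74 and 2.45 in the next 3 sub-windows of 5 kb. The order in which the sub-windows filled shows in how much of the gain from 10 to 40 min was there at 25 min. In order of distance, the 5 sub-windows had 66.3%, 47.9%, 29.2%, 12.4% and 0.936% of that gain at 25 min, as deposited. These shares were not computed under the other scalings. There, 9 bins (profile mean) or 7 bins (distal mean) at the far end were below their 10 min level at 25 min. Between 25 and 40 min the gain was 0.628 in the first bin, greatest at 39 to 40 kb with 1.45, and 1.196 in the last bin.

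The distance between places of equal signal at 25 and 40 min describes the shift of signal levels over these 15 min. For 17 of the 25 bins, those from 25 to 42 kb, the level at 25 min was met further along the untreated 40 min profile. The median distance was 24.4 kb, or 1.63 kb per min, and 23.4 kb after division by the distal mean. Division by the profile mean was not tried for this distance. The untreated profile mean was 1.84 at 25 min and 2.17 at 40 min. That division would thus lower the 40 min profile more than the distal mean does, and give shorter distances. As deposited, the distance was 19.8 kb for the level of the first bin, 2.58. For the level of the bin at 41 to 42 kb, 1.36, it was 35.0 kb. Lower levels were therefore met further along than higher ones, and the profile at 40 min was less steep. The level of 1.36 lay close to the untreated distal mean at 40 min, 1.35, which was 1.13 at 10 min and 1.30 at 25 min. For such low levels, movement and a higher distal level cannot be told apart. The lowest 25 min levels were never met, because the untreated 40 min profile stayed above them to 120 kb. No such distance was had in irradiated cells (0 of 25 bins). Up to 37 kb their 40 min profile was above the 25 min level and did not fall to it by 120 kb. From 37 kb on it was already below the 25 min level of the same bin, and no distance was looked for.

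**Figure D2:**
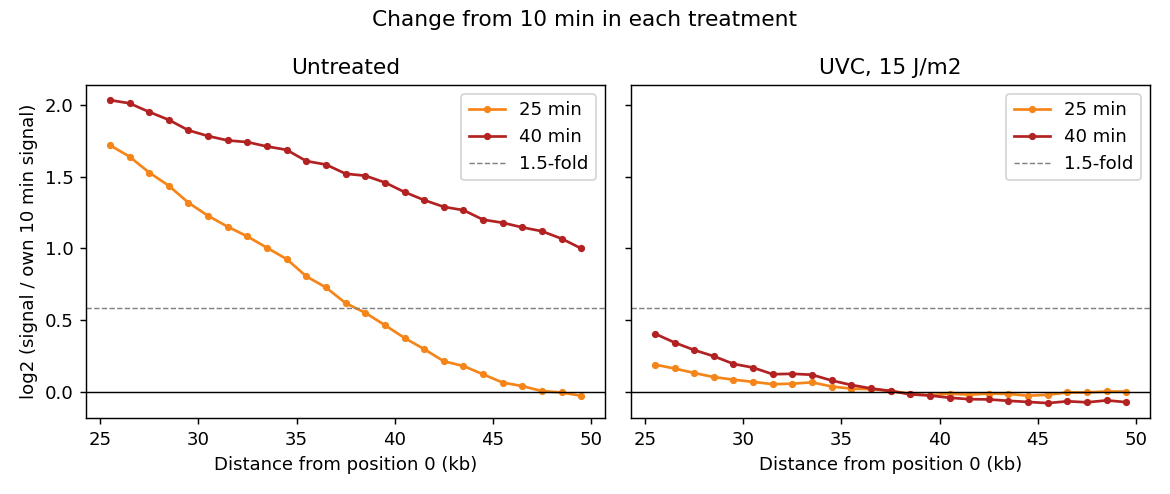
The log2 ratio of signal at 25 and 40 min to that at 10 min in the same treatment, per 1 kb bin, against distance from position 0 (kb). Untreated lines run from 3.30-fold to 0.98-fold at 25 min and from 4.10-fold to 2.0-fold at 40 min; irradiated lines stay under the dashed 1.5-fold mark in all bins.

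In irradiated cells the near end was higher at later times and the far end slightly lower. Between 25 and 30 kb the signal was 0.836 at 10 min, then 0.917 and 1.03, which is 1.10-fold and 1.23-fold the 10 min level. Between 30 and 35 kb the 3 times gave 0.975, 1.01 and 1.06, or 1.04-fold and 1.09-fold. The middle sub-window was level over time, with 1.07, 1.07 and 1.08. The sub-window between 40 and 45 kb held 1.15, 1.14 and 1.11, and the last one 1.17, 1.17 and 1.11. At 40 min the last 2 sub-windows were thus at 0.962-fold and 0.953-fold their 10 min level. The near end being higher and the far end lower at 40 min held for both other scalings, with 1.203-fold and 1.21-fold in the first sub-window and 0.934-fold and 0.938-fold in the last. Between 35 and 40 kb the direction depended on the scaling. The 25 min level there was 1.001-fold as deposited, 0.984-fold after division by the profile mean and 0.955-fold after division by the distal mean. The 40 min level was 1.005-fold, 0.985-fold and 0.989-fold in the same order. Between 30 and 35 kb the 25 min direction did too, at 0.992-fold after division by the distal mean.

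No irradiated bin reached 1.5-fold above its 10 min level. The count was 0 of 25 at 25 min, against 9.84% of all bins of the profile, and 0 of 25 at 40 min, against 13.1%. The highest was the first bin, with 1.14-fold at 25 min and 1.32-fold at 40 min. At 40 min 13 bins were above and 12 below their 10 min level, and the first bin below it began at 38 kb. That split became 11 and 14 after division by the profile mean and 12 and 13 after division by the distal mean. On the log2 scale the irradiated change from 10 min minus the untreated one was -0.71 after 25 min and -1.47 after 40 min. After division by the profile mean it was -0.41 and -0.93, and after division by the distal mean -0.58 and -1.24. The 25 min difference was then short of 1.5-fold under either division. By sub-window, as deposited, the 40 min difference went from -1.65 in the first to -1.17 in the last. The 25 min difference went from -1.40 in the first to -0.02 in the last, where the untreated signal was 1.01-fold its 10 min level.

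Set against untreated cells at the same time, the irradiated signal at 10 min was higher by a few percent along the whole stretch. The irradiated to untreated ratio was above 1 in 25 of 25 bins, from 1.01 to 1.04, with a median of 1.03. It had no slope to speak of (0.01 log2 per 10 kb). None of the 25 bins was 1.5-fold lower, against 5.74% of the profile. An offset of this size cannot be told apart from the scaling between libraries: it was 0.04 log2 as deposited and 0.10 after division by the profile mean.

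At 25 min the ratio climbed with distance from 0.352 in the first bin to 1.05 in the last. In order of distance, the 5 sub-windows of irradiated cells held 38.5%, 50.3%, 66.4%, 86.5% and 101% of the untreated level. Of the 25 bins, 12 were at least 1.5-fold lower in irradiated cells, all from 25 to 37 kb, against 23.8% of the profile. The bin from 37 to 38 kb, at 0.667, lay just outside that limit. The count was 8 after division by the profile mean and 11 after division by the distal mean. In 3 bins, from 47 kb on, the irradiated signal was the higher. That split of 3 bins above and 22 below 1 became 10 and 15 after division by the profile mean and 6 and 19 after division by the distal mean. The slope of the log2 ratio, on which scaling has no bearing, was 0.71 per 10 kb.

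At 40 min the irradiated signal was lower in every bin. All 25 were at least 1.5-fold lower, against 41.8% of the profile, and the ratio ran from 0.319 at 27 to 28 kb to 0.487 at 49 to 50 kb. In order of distance, the sub-windows held 32.3%, 33.5%, 35.7%, 40.4% and 45.5% of the untreated level. The slope of the log2 ratio was 0.25 per 10 kb, less than at 25 min. With each profile divided by its own mean, 21 of 25 bins were at least 1.5-fold lower. That division lowers the untreated signal more, as the profile mean at 40 min was 2.17 untreated and 1.43 irradiated. The stretch itself held 27.8% of the untreated signal from 0 to 120 kb and 15.9% of the irradiated signal. The neighbouring windows add to the difference in means, with 3.31 against 1.56 at 10 to 25 kb and 1.78 against 1.16 at 50 to 75 kb.

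**Figure D3:**
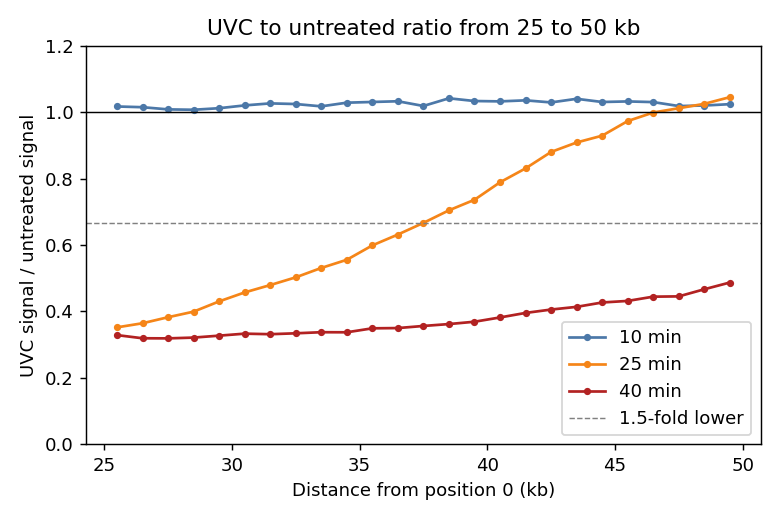
Irradiated signal divided by untreated signal at the same time, per 1 kb bin, against distance from position 0 (kb), 1 line per time. The 10 min line lies between 1.01 and 1.04, the 25 min line climbs from 0.352 to 1.05, and the 40 min line stays below 0.49.

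The direction of the gradient along the stretch parted the treatments after 10 min. The untreated slope of log2 signal was 0.23 per 10 kb at 10 min, then -0.54 and -0.19. The irradiated slope was 0.24, then 0.17 and 0.06. The untreated profile thus turned from upward to downward by 25 min and became less steep by 40 min. Over the whole stretch the irradiated profile had an upward slope at all 3 times and became flatter: its last bin was 1.51, 1.33 and 1.09 times its first. In signal units its slope was 0.168, 0.123 and 0.044 per 10 kb. The log2 slope did not become flatter from 10 to 25 min with the lowest bin subtracted and 0.1 added, at 0.71, 0.77 and 0.39. Within the nearest 3 sub-windows the irradiated 40 min slope was slightly downward, at -0.024, -0.0014 and -0.015 log2 per 10 kb. Within the first of them the untreated 40 min slope was -0.019. The SD over the 25 irradiated bins, which describes the unevenness of the profile and is no error, was 0.129, 0.093 and 0.035 over the 3 times.

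The neighbouring windows show where the stretch sat relative to the wave in each treatment. Nearer to position 0, between 10 and 25 kb, untreated signal was 0.923, 3.31 and 3.31 over the 3 times. As deposited, the mean of that window was thus alike at 25 and 40 min, but its profile still changed. The untreated slope there was -0.39 log2 per 10 kb at 25 min and -0.073 at 40 min. At 25 min the stretch from 25 to 50 kb had gained 36.0% of its untreated 40 min increase, also as deposited. Beyond the stretch, between 50 and 75 kb, untreated signal was 1.18, 1.202 and 1.78. With irradiation the nearer window did gain signal, with 0.788, 1.33 and 1.56. Its gain at 40 min was 32.1% of the untreated gain, against a net 1.92% in the stretch beyond it. Within the stretch that share was 8.08%, 3.90%, 0.248%, -2.69% and -4.22% in the sub-windows, in order of distance. Beyond the stretch the irradiated signal was 1.19, 1.21 and 1.16. The irradiated slope in the nearer window was -0.86 log2 per 10 kb after 25 min and -0.82 after 40 min, opposite in sign to that of the stretch itself. The signs were already opposite at 10 min in both treatments, with -0.15 irradiated and -0.65 untreated in the nearer window. These differences between windows of 1 library each were not tested.

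**Figure D4:**
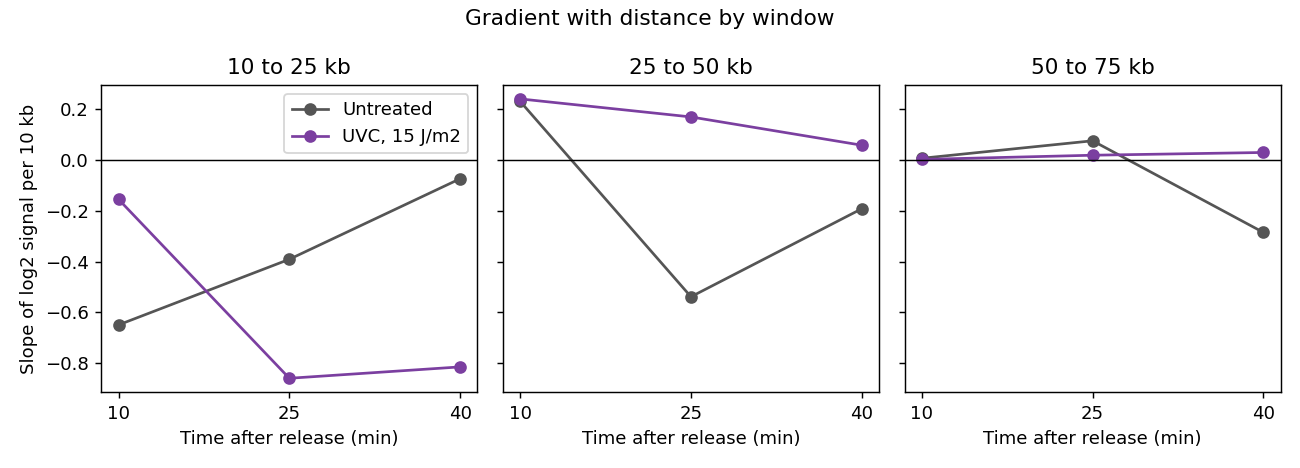
Slope of log2 signal per 10 kb, over 1 kb bins, against time after release (min) in 3 neighbouring windows, 1 point per library. From 25 to 50 kb both treatments start near 0.23 at 10 min; the untreated slope is -0.54 at 25 min, and the irradiated slope stays above 0.

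Local ups and downs along the stretch were small and partly shared between libraries. Around a smooth cubic trend in log2 signal, bins of 100 bp had an SD of 2.01% in irradiated cells at 10 min and 1.92% in untreated cells at 10 min. At the later times the SD was 1.33% and 0.909% without irradiation, and 1.88% and 1.79% with it. The deviations of irradiated cells at 25 and 40 min had a Pearson correlation of 0.89 over 250 bins. At 10 min that of untreated and irradiated cells was 0.86. The lowest correlation, 0.29, was that of untreated cells at 10 and 40 min. These are descriptions, since libraries averaged over the same genes share their sequence and neighbouring bins can share reads, and part of the deviation is curvature that the trend leaves. The bin at 47.7 to 47.8 kb was the lowest on average over the libraries, with a mean of -0.06 log2, and the bin at 30.4 to 30.5 kb stood 0.05 log2 above the trend. Both had the same sign in 6 of 6 libraries, but at 47.7 kb the untreated 40 min deviation was -0.0092, within that library's SD of 0.013.

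**Figure D5:**
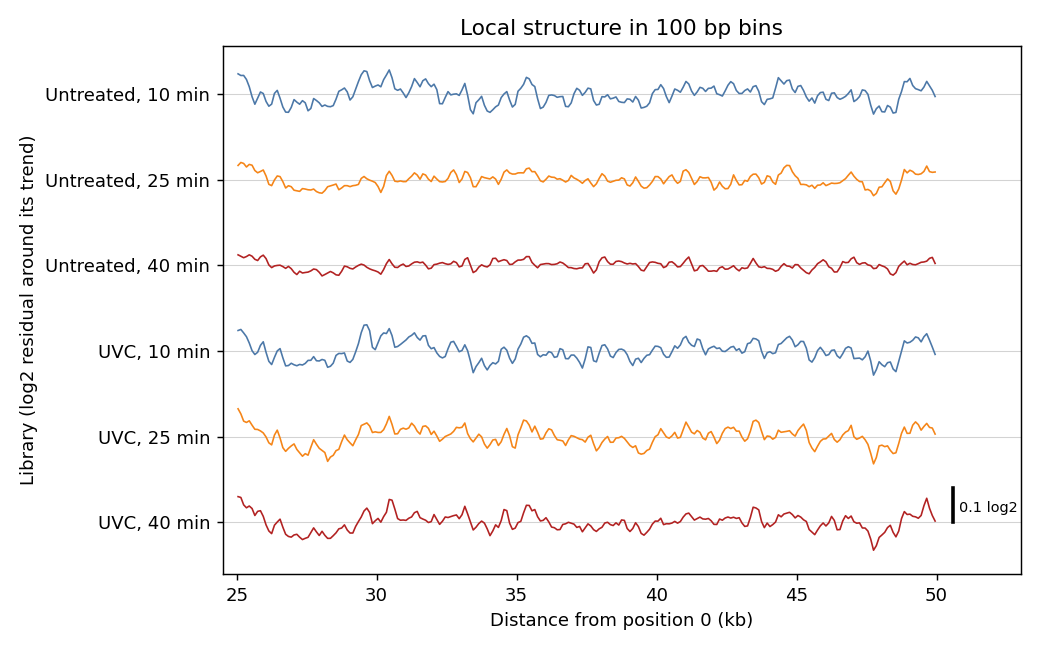
Deviation of log2 signal in 100 bp bins from a cubic trend, against distance from position 0 (kb), 1 trace per library with a scale bar of 0.1 log2. The dip near 47.7 kb is the lowest point of 5 traces, all but the untreated 40 min one, and the untreated 40 min trace is the smoothest, with an SD of 0.909%.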

How the data were processed

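The authors deposited, for each of the 6 libraries, 1 signal value per position from -2000 to 120000, an average over genes per the file headers. The libraries were strand-specific and sequenced as single-end reads of 51 bp, per the labels' protocols. BWA 0.5.9 and hg19 (GRCh37) are named in the submitters' processing notes, with no role given. The gene set, strand handling, read extension and scaling of the deposited signal are not given in the sources used here. An average over genes hides differences between genes and can rest on a few strongly transcribed ones.

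Groups were read from the source names. Positions 25000 to 49999 were averaged in 25 bins of 1 kb and 5 sub-windows of 5 kb (Python 3.11.15; numpy 2.4.6; matplotlib 3.10.9 for figures; pandas 2.3.3), and ratios were taken with no pseudocount. Slopes are least-squares fits over bins. For an equal-level distance, each 25 min bin level was looked for along the 40 min profile, from the same bin outward. This was done only where the 40 min signal of that bin was above the level. A bin was counted when it passed 1.5-fold. With 1 library per group no test was made. Slope, ratio and distance functions were tested on simulated data. The stretch and its measures were chosen with earlier results of these data known. Regions named were the stretch, its sub-windows, its end bins and its highest and lowest bins. Some bins of 100 bp and the bin nearest to the 1.5-fold limit were added, singled out after their values were seen. Alternatives changed scaling, background, summary, bin width, fold and edges.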

Additional observations from a re-analysis of the deposited data

Results flagged for a closer look

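The ratio of irradiated to untreated signal in the stretch lay on opposite sides of 1 at different times: its log2 value was 0.037 at 10 min, then -0.68 and -1.43. The difference between times was not tested, with 1 library per group. The 10 min value is small, and it was between 0.035 and 0.102 under the 4 alternatives that gave a value.

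The gradient along the stretch had opposite directions in the treatments at 25 min, -0.54 log2 per 10 kb untreated and 0.17 irradiated, and at 40 min, -0.19 untreated and 0.059 irradiated. This difference was not tested either. A factor per library cannot alter these slopes.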

How the results depend on the processing

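Of 109 values recomputed under the alternatives, 99 stayed within 1.5-fold of the reported value and 10 did not; none of the values past 1.5-fold changed sign. For lack of replicates this 1.5-fold limit (for slopes, over the whole stretch) stood in for a spread. Division by the profile mean moved the log2 ratio of irradiated to untreated signal at 40 min to -0.83; it shifts every ratio by 0.064, 0.37 and 0.61 log2 at 10, 25 and 40 min, and division by the distal mean shifts them by -0.0022, 0.13 and 0.23. At 25 min the log2 ratio was then -0.31 and -0.55, and the untreated change from 10 min 0.41 and 0.54, both short of 1.5-fold. The irradiated change from 10 to 25 min was 0.028 as deposited and -0.040 after division by the distal mean. With the lowest bin subtracted and 0.1 added, the untreated slopes per 10 kb became 0.75 at 10 min and -1.62 at 25 min. The 3 irradiated slopes became 0.71, 0.77 and 0.39, so they no longer fell from 10 to 25 min. In that setting the slopes of the log2 ratio were 2.39 at 25 min and 0.73 at 40 min. A 2-fold limit left 28% of bins lower in irradiated cells at 25 min, against 48% at 1.5-fold, and a 1.2-fold limit put 12% of irradiated bins above their 10 min level at 40 min, against 0. Subtracting the distal mean gave no ratio and no change over time, because the stretch lay below the distal mean in both 10 min libraries and in all irradiated libraries. The labels give no replicate numbers, so no fit with a replicate block was made.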
